A study of Mus musculus with 16 samples.

Results

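The Gadd45 genes Gadd45a, Gadd45b and Gadd45g were followed in RNA sequencing of mouse primary hippocampal cultures in which neuronal activity and the DNA methyltransferase gene Dnmt3a had been manipulated. The members were chosen by name, and they are 3 of the 55385 genes in the expression tables. All 3 passed the filter on low counts, which left 17222 genes for testing. Cultures from newborn C57Bl/6N mice carried either Control-shRNA or Dnmt3a1-shRNA, a short hairpin RNA against the longer isoform of Dnmt3a, and were harvested in baseline or after 4 h of bicuculline. Each of the 4 groups (Control-shRNA baseline, Control-shRNA bicuculline, Dnmt3a1-shRNA baseline and Dnmt3a1-shRNA bicuculline) held 4 libraries, 16 in all. The study describes the libraries within a condition as independent neuronal preparations. It does not say whether a preparation was shared between conditions. The main fit did not use the replicate number, which entered as a block in an alternative fit. Every culture, controls included, had been infected with a recombinant adeno-associated virus. The U6 promoter of the virus drives the hairpin, and a chicken β-actin promoter, which is not restricted to neurons, drives GFP. For its injections into mice, the study names neuronal tropism as the reason for the viral serotype. The knockdown rests on a single hairpin sequence, and no uninfected culture was analysed here.

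Growth arrest and DNA damage 45 proteins are small acidic proteins of the nucleus without an enzyme activity of their own. They bind the kinase Map3k4 and so switch on the p38 and JNK kinases, they bind the cell cycle proteins Pcna, Cdkn1a and Cdk1, and they have been linked with active DNA demethylation, in which repair enzymes replace modified cytosines. Gadd45a is a classical target of p53, whereas Gadd45b is known in the hippocampus as an immediate early gene of neuronal activity, with Bdnf and Fgf1 as the growth factor genes whose demethylation was linked to it. Bicuculline blocks GABA-A receptors and thereby releases the cultured network from inhibition.

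The genes lie on 3 chromosomes of the mouse genome build GRCm38. Gadd45a (ENSMUSG00000036390.8) spans chr6:67035096-67037457 on the minus strand with 7 annotated transcripts. Gadd45b (ENSMUSG00000015312.9) spans chr10:80930073-80932204 on the plus strand with 3 transcripts, and Gadd45g (ENSMUSG00000021453.2) spans chr13:51846678-51848468 on the plus strand with 2 transcripts. In each gene the longest coding transcript has 4 exons, with 495 coding bases in Gadd45a, 480 in Gadd45b and 477 in Gadd45g. The values below are sums over all transcripts of a gene, retained introns included.

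The promoters of the 3 genes are shown because all 3 transcripts rose together with bicuculline. The sequences are from RefSeq on GRCm38.p6 and cover the 200 bases from 250 to 51 bases before the RefSeq start, written from 5′ to 3′ on the strand of the gene. Capitals mark the letters CCAAT, the octamer ATTTGCAT on either strand and the palindrome CACGTG. The windows are chr6:67037458-67037657 (minus strand), chr10:80929841-80930040 (plus strand) and chr13:51846425-51846624 (plus strand).
Gadd45a: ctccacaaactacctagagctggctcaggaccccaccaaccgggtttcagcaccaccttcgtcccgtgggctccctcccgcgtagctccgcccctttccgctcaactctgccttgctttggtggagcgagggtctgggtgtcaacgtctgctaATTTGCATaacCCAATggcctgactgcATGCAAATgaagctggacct
Gadd45b: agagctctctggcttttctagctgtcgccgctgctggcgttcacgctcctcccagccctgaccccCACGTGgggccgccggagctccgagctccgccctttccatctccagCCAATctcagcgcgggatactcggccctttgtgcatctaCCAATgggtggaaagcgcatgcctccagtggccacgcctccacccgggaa
Gadd45g: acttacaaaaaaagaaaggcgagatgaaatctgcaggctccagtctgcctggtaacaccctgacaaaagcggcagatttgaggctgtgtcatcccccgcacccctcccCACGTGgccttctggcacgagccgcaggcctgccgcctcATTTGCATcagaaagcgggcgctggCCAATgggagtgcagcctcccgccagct

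The letters CCAAT were present in all 3 windows, at 86 bases before the start in Gadd45a, at 139 and 100 in Gadd45b and at 78 in Gadd45g, and in 31.8% of the 27025 genes with a RefSeq promoter when both strands were searched. Gadd45a held the octamer ATTTGCAT at 97 bases before the start and again, on the opposite strand, at 70, with a CCAAT between them. Gadd45g held the octamer at 103 bases before the start, and 1.49% of all genes held it. CACGTG was found in Gadd45b and Gadd45g and in 4.98% of all genes, and GGGCGG in Gadd45a and Gadd45b and in 27.2%. TGATGNAA was matched in Gadd45g only, on the minus strand and overlapping its octamer, against 3.14% of all genes. None of the windows matched TGACGTCA (0.955% of genes), TGACG (14.3%), TGANTCA (6.51%), TGTTTAC (2.9%) or GCGTGGGCG (0.411%), which says only that these letters are not in these 200 bases. The windows held 9, 15 and 10 CpG dinucleotides in Gadd45a, Gadd45b and Gadd45g, against a median of 4 over all promoters. Fewer were held by 67.9%, 82.2% and 70.7% of all promoters, respectively.

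The estimated counts of a library summed to between 28912697 and 29586355, with 2.73% to 6.60% of them on mitochondrial genes. The 8 pan-neuronal markers summed to between 4295 and 5076 TPM in a library, the astrocyte markers to between 159 and 437, the oligodendrocyte lineage markers to between 81.2 and 188 and the microglia markers to between 2.58 and 8.64 TPM. All 8 neuronal and all 8 astrocyte markers were detected in every library, so the cultures were mixed. In such bulk samples a change in the number of cells of a type and a change in RNA per cell cannot be told apart. Dnmt3a, the target of the hairpin, was measured at 312 ± 13.8 CPM in Control-shRNA and 44.5 ± 3.66 CPM in Dnmt3a1-shRNA cultures in baseline (SD, n = 4).

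Bicuculline raised all 3 Gadd45 transcripts in Control-shRNA cultures, and it raised Gadd45b and Gadd45g far more than Gadd45a. Levels are given as CPM, the estimated count scaled to a common library size after TMM normalisation. In this comparison the calls took in 10.8% of the genes tested as higher and 11.1% as lower, and 3 of the 3 members as higher. A call required a Benjamini-Hochberg adjusted p under 0.05 in edgeR's quasi-likelihood test and an absolute log2 fold change over 0.5. No baseline library overlapped a bicuculline library in any member, a separation seen in 39.7% of all genes tested.

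Gadd45b, the member known from activity-induced transcription, was at 6.52, 6.17, 4.93 and 6.36 CPM in replicates 1 to 4 of the Control-shRNA baseline libraries. With bicuculline it was at 195, 109, 127 and 161 CPM. The lowest stimulated library thus lay far above the highest baseline library, although the stimulated libraries themselves spread over a wide range (SD 38 CPM around a mean of 148 CPM, n = 4). The log2 fold change was 4.63 (SE 0.17, edgeR adjusted p = 1.64e-12), a 24.7-fold rise. Of all genes tested, 37 had a higher log2 fold change, and only 14 of those were among the 9238 genes averaging at least 10 CPM.

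Gadd45g, which shares the kinase-activating role of the family, was at 8.20, 8.37, 11.2 and 7.75 CPM in Control-shRNA baseline and at 222, 133, 149 and 135 CPM with bicuculline. Replicate 1 was the highest stimulated library for Gadd45g as well as for Gadd45b. The log2 fold change was 4.17 (SE 0.17, edgeR adjusted p = 4.58e-12), an 18-fold rise, and 46 genes had a higher one. The 95% intervals of the log2 fold changes of Gadd45b (4.27 to 4.99) and Gadd45g (3.81 to 4.53) overlapped.

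Gadd45a, the p53 target of the family, was at 2.30, 2.41, 2.46 and 1.75 CPM in Control-shRNA baseline and at 6.37, 7.35, 8.89 and 5.96 CPM with bicuculline. Its log2 fold change was 1.68 (SE 0.18, edgeR adjusted p = 8.07e-07), a 3.19-fold rise. The 95% interval, from 1.30 to 2.05, lay below those of the other members, and 400 genes had a higher log2 fold change. These values rest on few reads, between 53.7 and 81.3 estimated counts per baseline library, where those of Gadd45b were between 162 and 200 and those of Gadd45g between 239 and 368. By an exact two-sided permutation test of log2 CPM, each of the 3 members reached p = 0.0286, which is the lowest value possible with 4 libraries against 4.

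Markers of cell types had smaller log2 fold changes with bicuculline than the Gadd45 genes in these cultures. Calls in either direction took in 21.9% of all genes. Of the neuronal markers 2 of 8 were called higher (Nefl, 1.25, and Nefm, 0.74) and 1 lower (Tubb3, −0.77), which is 37.5%. Of the astrocyte markers 1 of 8 was called, Sox9, at 1.09. All 8 astrocyte markers lay above 0, from 0.13 to 1.09, with a median log2 fold change of 0.32. Their summed levels overlapped between baseline (4295 to 4891 TPM for neurons and 180 to 334 TPM for astrocytes) and bicuculline (4385 to 4691 and 159 to 344 TPM). Of the oligodendrocyte lineage markers 1 of 7 was called (Mog, lower) and of the fibroblast and vessel markers 2 of 7 (Col1a2 and Pdgfrb, higher). Of the microglia markers edgeR and DESeq2 called 0 of 4 and voom with limma 1, with 1 at an unadjusted p under 0.05.

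**Figure D1:**
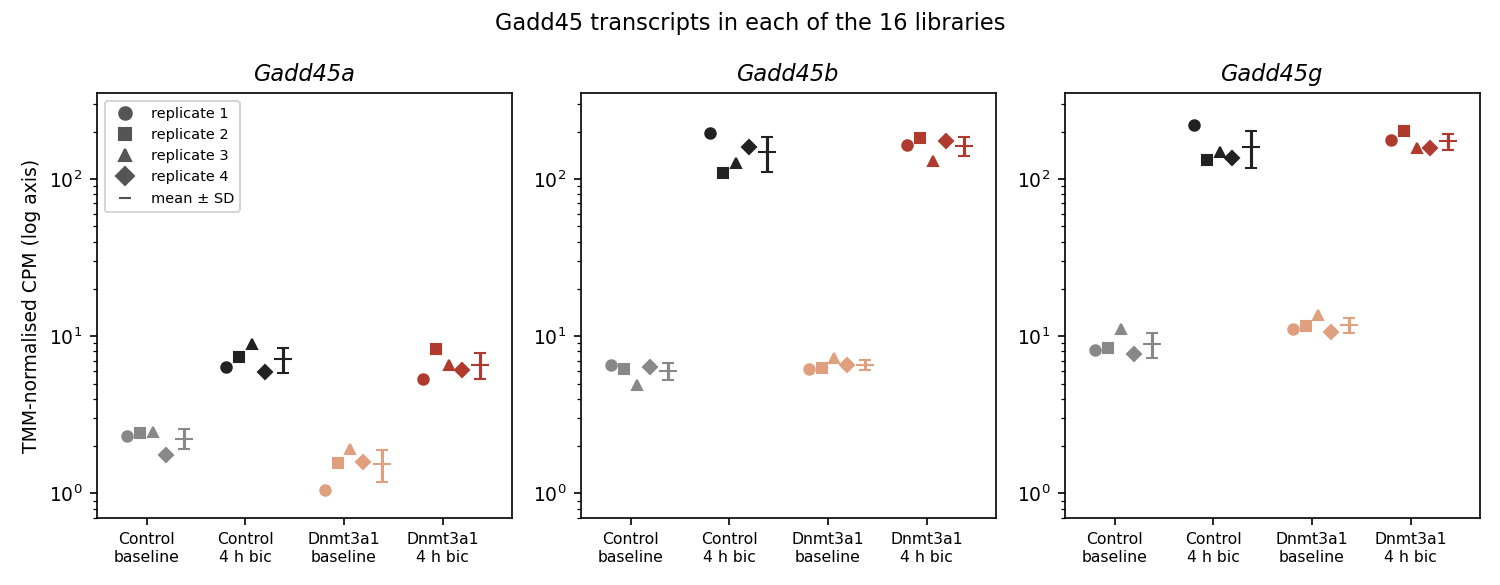
TMM-normalised CPM of Gadd45a, Gadd45b and Gadd45g on a log axis, with 1 symbol per library (circle, square, triangle and diamond for replicates 1 to 4) in each of the 4 groups of shRNA and treatment (bic, bicuculline), and the mean ± SD of each group beside its symbols. In all 3 panels the bicuculline libraries sit above every baseline library, by far more for Gadd45b and Gadd45g than for Gadd45a, and the groups of the 2 shRNAs lie close together.

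The same comparison in Dnmt3a1-shRNA cultures gave calls of the same direction. Here the calls took in 12.6% of the genes tested as higher, 13.2% as lower and 3 of the 3 members as higher, and the libraries did not overlap in any member, against 40.4% of all genes. The comparison was made against its own baseline libraries and shares no library with the one in Control-shRNA cultures. Neuronal preparations may still have been shared between the shRNAs. After subtraction of the group means, libraries of the same number correlated between the shRNAs with r from 0.204 to 0.355 in baseline. With bicuculline r was from 0.067 to 0.388. Both comparisons also came from the same fit, so the result in knockdown cultures cannot be counted as an independent repeat.

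Gadd45b was at 6.22, 6.25, 7.24 and 6.53 CPM in Dnmt3a1-shRNA baseline and at 164, 183, 130 and 174 CPM with bicuculline, a log2 fold change of 4.63 (SE 0.17, edgeR adjusted p = 1.31e-12). Gadd45g was at 11.2, 11.7, 13.7 and 10.7 CPM in baseline and at 177, 201, 158 and 157 CPM with bicuculline, a log2 fold change of 3.87 (SE 0.17, edgeR adjusted p = 7.61e-12). In the knockdown cultures as well, each stimulated library held over 10 times the level of any baseline library for both genes. Gadd45a was at 1.05, 1.57, 1.91 and 1.58 CPM in baseline and at 5.31, 8.26, 6.59 and 6.13 CPM with bicuculline, a log2 fold change of 2.10 (SE 0.19, edgeR adjusted p = 7.60e-08). The rises were 24.8-fold for Gadd45b, 14.7-fold for Gadd45g and 4.28-fold for Gadd45a, so the members kept the order they had in Control-shRNA cultures.

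Whether the knockdown altered the response to bicuculline was tested by the interaction of the 2 factors. The log2 fold change of Gadd45a was higher by 0.42 in the knockdown cultures (SE 0.26, 95% interval −0.12 to 0.97), and that of Gadd45g was lower by 0.29 (interaction −0.29, SE 0.22, interval −0.76 to 0.17). For Gadd45b the interaction was 0.0016 (SE 0.24, interval −0.50 to 0.50). The adjusted p was 1 for each member in edgeR, and 0 of the 3 had an unadjusted p under 0.05. Over all genes edgeR called 0% in the interaction, with 852 genes at an unadjusted p under 0.05, while voom with limma called 0 genes and DESeq2 called 18, none of them a Gadd45 gene. The intervals leave room for differences of up to 0.97 on the log2 scale in Gadd45a.

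In baseline, the Gadd45 genes did not move together after Dnmt3a1 knockdown. Gadd45a was lower and Gadd45g higher at an unadjusted p under 0.05, and Gadd45b differed little. In the main fit, which left out the pairing by replicate number, neither passed the adjustment over all genes. With the replicate number as a block, Gadd45a was a call (edgeR adjusted p = 0.0146) and Gadd45g was not. In this comparison 5.83% of all genes were called. Without the block, 0 of the 3 members were called by edgeR or by voom with limma, against 1 by DESeq2. Control and knockdown libraries overlapped for every member, whereas 19.9% of all genes tested showed no overlap.

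The Gadd45a level was 2.23 ± 0.33 CPM in Control-shRNA and 1.53 ± 0.35 CPM in Dnmt3a1-shRNA cultures (SD, n = 4), with a log2 fold change of −0.54 (SE 0.20, 95% interval −0.96 to −0.12, edgeR adjusted p = 0.0723, unadjusted p = 0.0140). The overlap came from Control-shRNA replicate 4 at 1.75 CPM, below knockdown replicate 3 at 1.91 CPM, and the unpaired exact permutation test gave p = 0.0571. Between libraries of the same number Gadd45a was lower in the knockdown library in 4 of 4 pairs. This value lay at the edge of a call. When the replicate number, which paired the libraries of this comparison, was added as a block, the log2 fold change was −0.55 with an edgeR adjusted p of 0.0146, which is a call. DESeq2 also called it (−0.54, adjusted p = 0.0470), as did edgeR without replicate 3 of the knockdown baseline libraries (−0.67, adjusted p = 0.0427). Across all alternatives the adjusted p ranged from 0.0146 to 0.202 (both by edgeR).

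A further limit on Gadd45a is its neighbour on the opposite strand. The noncoding gene E230016M11Rik (ENSMUSG00000087231.7) on the plus strand overlaps it, and 309 of the 1820 stretches of 31 bases in the Gadd45a transcripts also occur in transcripts of other genes, against 0 of 1588 for Gadd45b and 0 of 1172 for Gadd45g. All 309 shared stretches occur in E230016M11Rik. Whether the counting used the strand of the reads is not given in the sources used here. The estimated counts of Gadd45a held fractions in every library, whereas those of Gadd45b and Gadd45g were whole numbers. Some reads were therefore divided between Gadd45a and another gene, and the Gadd45a level is uncertain to that extent. E230016M11Rik moved with Gadd45a after knockdown, from 1.22 ± 0.38 to 0.72 ± 0.17 CPM in baseline (SD, n = 4), with a log2 fold change of −0.76 (SE 0.27, edgeR adjusted p = 0.0696). Summed with it as a single gene, an alternative chosen after the values were seen, Gadd45a had a log2 fold change of −0.62 (edgeR adjusted p = 0.0312), which is a call. With bicuculline E230016M11Rik had log2 fold changes of 0.10 (adjusted p = 0.802) in Control-shRNA and 0.78 (adjusted p = 0.0288) in knockdown cultures, and the summed gene had 1.28 and 1.80, both called (edgeR). Its part in the Gadd45a values was not tested further.

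Gadd45g was at 8.88 ± 1.57 CPM in Control-shRNA baseline and at 11.8 ± 1.34 CPM in Dnmt3a1-shRNA baseline (SD, n = 4), with a log2 fold change of 0.41 (SE 0.17, 95% interval 0.06 to 0.76, edgeR adjusted p = 0.106, unadjusted p = 0.0242). Control-shRNA replicate 3, at 11.2 CPM, was the only control library within the range of the knockdown libraries, and without it the value was 0.54 with an edgeR adjusted p of 0.0462, which is a call. Without Control-shRNA bicuculline replicate 1 the edgeR adjusted p was 0.0282 at 0.41, below the fold threshold. Between libraries of the same number Gadd45g was higher in the knockdown library in 4 of 4 pairs, and in the fit with the replicate block it had 0.41 with an edgeR adjusted p of 0.0610, which is not a call. Across all alternatives the adjusted p ranged from 0.0282 (edgeR) to 0.299 (voom with limma). The unpaired exact permutation test gave p = 0.0857. Gadd45b was at 5.99 ± 0.72 and 6.56 ± 0.48 CPM (SD, n = 4), with a log2 fold change of 0.13 (SE 0.18, interval −0.24 to 0.50, edgeR adjusted p = 0.673), with an exact permutation p of 0.314.

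**Figure D2:**
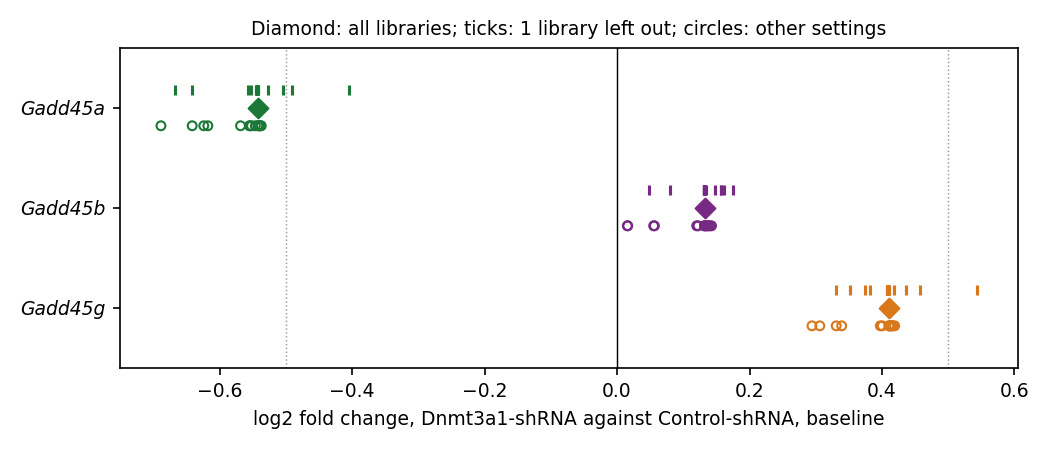
Log2 fold change of each Gadd45 gene between Dnmt3a1-shRNA and Control-shRNA in baseline, with all libraries (diamond), with 1 library left out in turn (16 ticks per gene) and under the other settings tried (open circles). The dotted lines mark the fold threshold of 0.5, and the values of Gadd45a stay below 0 and those of Gadd45g above 0 throughout, on both sides of their thresholds.

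Markers of the cell types in the cultures were compared between the shRNAs in baseline beside these values. The 8 astrocyte markers had a median log2 fold change of 0.42, with 1 of 8 called (S100b, 0.82, SE 0.23, edgeR adjusted p = 0.0210) and 5 of 8 at an unadjusted p under 0.05, and summed to between 180 and 334 TPM in Control-shRNA and between 203 and 436 TPM in Dnmt3a1-shRNA libraries. The part of these cells in the values of Gadd45a and Gadd45g was not tested. The neuronal markers had a median of 0.07, with 1 of 8 called (Tubb3, 0.51, SE 0.09, edgeR adjusted p = 9.52e-04). Of the microglia markers 1 of 4 tested was called (Csf1r, −0.66), and of the fibroblast and vessel markers 1 of 7 (Pdgfrb, 0.75). Of the oligodendrocyte lineage markers 0 of 7 and of the proliferation markers 0 of 6 were called by edgeR, voom with limma or DESeq2, with 0 and 1 at an unadjusted p under 0.05.

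With bicuculline, the 2 shRNAs gave nearly the same Gadd45 levels. Gadd45a was at 7.14 ± 1.30 CPM in Control-shRNA and 6.57 ± 1.24 CPM in Dnmt3a1-shRNA cultures (SD, n = 4), with a log2 fold change of −0.12 (SE 0.17, 95% interval −0.47 to 0.23, edgeR adjusted p = 0.674). Without Control-shRNA replicate 3 this value was 0.0033. Gadd45b was at 148 ± 38 and 163 ± 23.0 CPM (SD, n = 4), with a log2 fold change of 0.13 (SE 0.14, interval −0.16 to 0.43, edgeR adjusted p = 0.562). Gadd45g was at 160 ± 42.0 and 173 ± 20.4 CPM (SD, n = 4), with a log2 fold change of 0.12 (SE 0.14, interval −0.19 to 0.42, edgeR adjusted p = 0.630). Here 5.89% of all genes were called and 20.9% showed no overlap, while 0 of the 3 members were called by edgeR, voom with limma or DESeq2, 0 had an unadjusted p under 0.05, and all 3 overlapped. The exact permutation p was 0.514 for Gadd45a and 0.486 for Gadd45b and Gadd45g, and each interval excluded a difference as large as the fold threshold.

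**Figure D3:**
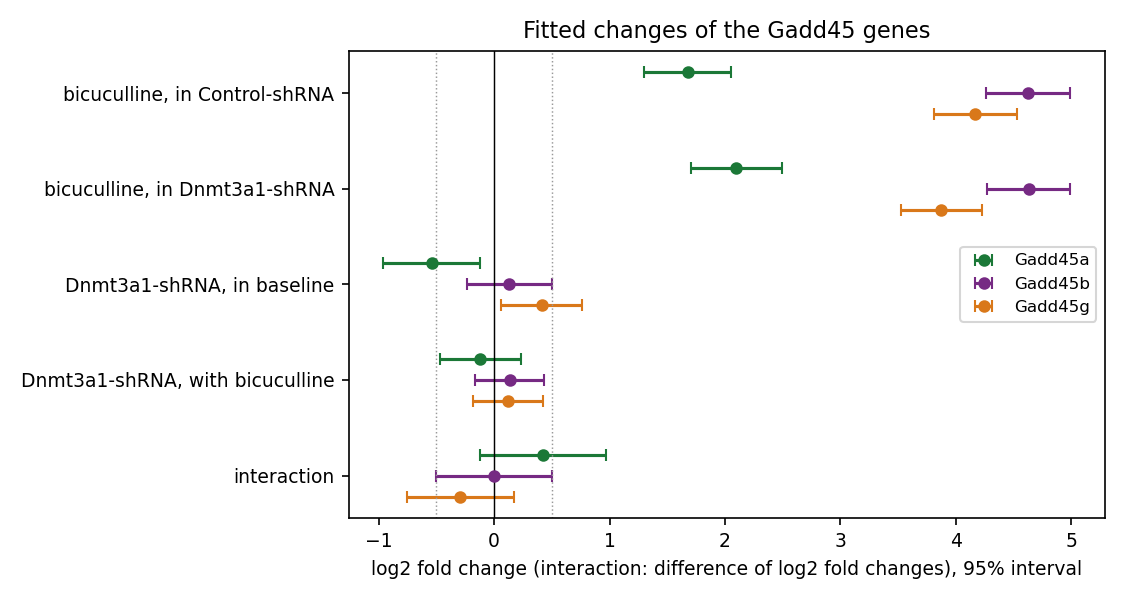
Fitted log2 fold changes of Gadd45a, Gadd45b and Gadd45g with 95% intervals in the 4 comparisons, and the interaction as the difference of the log2 fold changes. The dotted lines mark the fold threshold of 0.5, and only the bicuculline comparisons lie wholly beyond them. In Control-shRNA and Dnmt3a1-shRNA cultures these are 4.63 and 4.63 for Gadd45b, 4.17 and 3.87 for Gadd45g and 1.68 and 2.10 for Gadd45a.

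Levels of different genes were compared in TPM, which is scaled for transcript length. In Control-shRNA baseline Gadd45g stood highest at 21.2 ± 4.84 TPM, followed by Gadd45b at 12 ± 0.93 and Gadd45a at 5.52 ± 1.25 TPM (SD, n = 4), and the ranges did not overlap. The order in Dnmt3a1-shRNA baseline was the same, at 26.1 ± 4.93, 12.2 ± 1.85 and 3.38 ± 0.76 TPM. With bicuculline Gadd45g and Gadd45b stood at 326 ± 68.5 and 256 ± 51.1 TPM in Control-shRNA and at 330.4 ± 34.0 and 261 ± 30.1 in knockdown cultures. Gadd45a stood at 14.9 ± 2.92 and 13.4 ± 3.29 TPM. The ratio of Gadd45b to Gadd45g rose from 0.59 ± 0.15 to 0.79 ± 0.14 in Control-shRNA cultures. In knockdown cultures it rose from 0.47 ± 0.04 to 0.79 ± 0.10 (SD, n = 4). Gadd45g exceeded Gadd45b in 15 of the 16 libraries. The exception was Control-shRNA bicuculline replicate 4 (284 TPM of Gadd45b and 282 TPM of Gadd45g), and in that group alone the ranges of the neighbours overlapped.

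The pool of Gadd45 transcripts therefore changed in make-up as it grew. The summed TPM of the 3 genes rose from 38.7 ± 4.97 to 597 ± 109 in Control-shRNA and from 41.7 ± 7.25 to 604 ± 56.1 in Dnmt3a1-shRNA cultures (SD, n = 4). Gadd45b went from 31.5% to 42.9% of the summed TPM in Control-shRNA and from 29.3% to 43.1% in knockdown cultures. The share of Gadd45a fell from 14.2% ± 2.08 to 2.58% ± 0.80 in Control-shRNA and from 8.10% ± 1.25 to 2.20% ± 0.45 in knockdown cultures (SD, n = 4). In baseline the Gadd45a share spanned 11.3% to 16.3% with Control-shRNA and 6.77% to 9.79% with Dnmt3a1-shRNA. The Gadd45a level itself overlapped between these groups (3.94 to 6.69 and 2.42 to 4.09 TPM), and the Gadd45g share stood at 54.3% ± 5.16 and 62.6% ± 1.33 (SD, n = 4). With bicuculline the Gadd45a shares, 1.72% to 3.34% and 1.65% to 2.67%, overlapped. These shares are descriptive, and the reads shared with E230016M11Rik bear on the Gadd45a part.

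**Figure D4:**
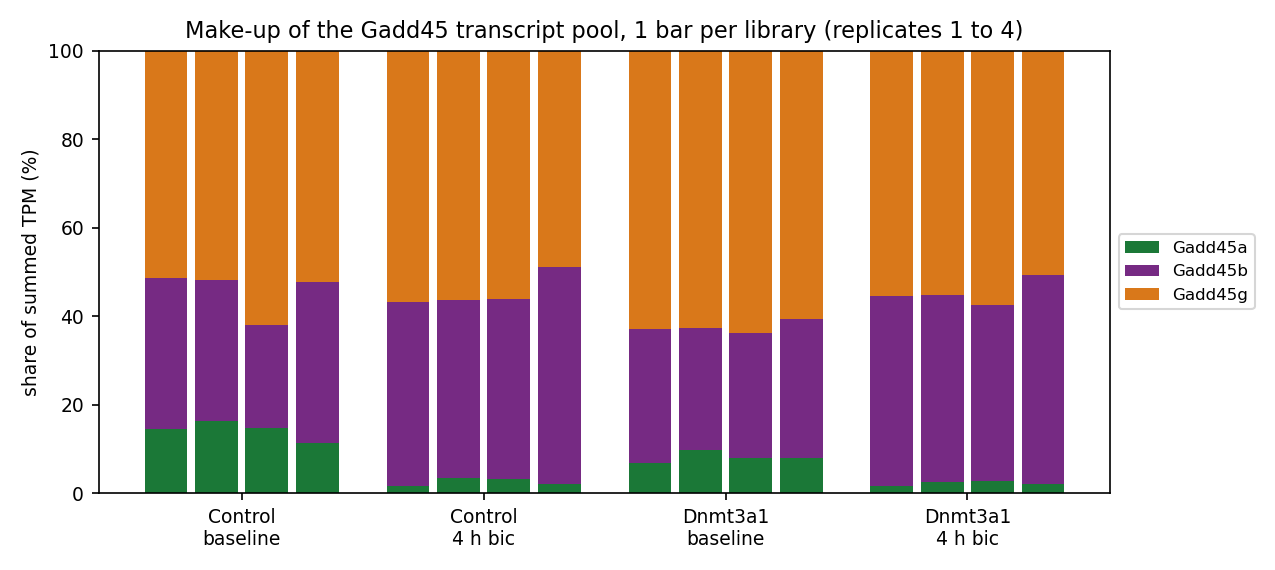
Share of Gadd45a, Gadd45b and Gadd45g in their summed TPM, with 1 bar per library, replicates 1 to 4 from left to right in each of the 4 groups (bic, bicuculline). Gadd45a takes 11.3% to 16.3% in Control-shRNA baseline, 6.77% to 9.79% in Dnmt3a1-shRNA baseline and at most 3.34% with bicuculline.

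The quotient of estimated count and TPM reflects the transcript length that the quantification assigned to a gene, here relative to 749 genes with 1 annotated transcript. For Gadd45b it was 0.406 in Control-shRNA baseline and 0.404 with bicuculline, and for Gadd45g 0.343 and 0.344. These quotients hardly moved, whereas that of Gadd45a varied more between libraries, from 0.299 to 0.384 in Dnmt3a1-shRNA baseline.

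The 3 transcripts followed each other across the 16 libraries, with a Pearson r of log2 CPM of 0.993 between Gadd45b and Gadd45g, 0.936 between Gadd45a and Gadd45b and 0.932 between Gadd45a and Gadd45g. The libraries fall into baseline and bicuculline clusters, which dominate these values. Among genes averaging at least 10 CPM, those most like Gadd45b by Pearson r of log2 CPM were Csrnp1 (0.997), the glucose transporter gene Slc2a3 (0.996), Tiparp (0.996) and the kinase gene Sgk1 (0.996). Those most like Gadd45g were the transcription factor genes Fos (0.998), Egr1 (0.997) and Nr4a2 (0.996), followed by Ccn1 (0.996), which encodes a matricellular protein. Those most like Gadd45a were the potassium channel gene Kcnf1 (0.980), Cebpb (0.977), Aff1 (0.975) and Klf5 (0.974), with Cebpb, Aff1 and Klf5 encoding regulators of transcription. By Spearman's rho in place of Pearson's r, 1 of the 4 genes remained for Gadd45a (Kcnf1), 1 for Gadd45b (Tiparp) and 2 for Gadd45g (Fos and Nr4a2).

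The levels of these companions differed widely. Csrnp1 in Control-shRNA cultures went from 3.18 ± 0.08 to 112 ± 17.9 CPM with bicuculline (SD, n = 4), with a log2 fold change of 5.14, more than that of Gadd45b at 4.63, whereas Slc2a3 went from 191 ± 13.3 to 824 ± 33.5 CPM, a log2 fold change of 2.11. Kcnf1 went from 39.6 ± 7.66 to 135 ± 12.9 CPM (SD, n = 4), with a log2 fold change of 1.77 beside the 1.68 of Gadd45a.

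Of the 6 nearest protein-coding neighbours, none was called higher with bicuculline. The share of all genes called higher was 10.8% in Control-shRNA and 12.6% in knockdown cultures, and a count from 6 genes cannot be told from it. Beside Gadd45a, Gng12 had a log2 fold change of 0.26 in Control-shRNA and 0.33 in knockdown cultures (edgeR adjusted p = 0.00435 and 4.98e-04), below the fold threshold, and Serbp1 had 0.02 and −0.01. Beside Gadd45b, Gng7 had 0.21 and 0.14 (edgeR adjusted p = 0.0136 and 0.0735) and Lmnb2 had 0.03 and −0.03. The overlapping noncoding gene E230016M11Rik, described above, was called higher in knockdown cultures. Beside Gadd45g, Diras2 had 0.03 and −0.12, whereas Sema4d, which encodes a membrane-bound semaphorin, fell by 1.37 on the log2 scale in Control-shRNA cultures (SE 0.10, edgeR adjusted p = 1.39e-08), from 47.3 ± 4.4 to 18.3 ± 1.97 CPM (SD, n = 4), the opposite direction to Gadd45g.

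The genes of the Gadd45 pathways were taken from lists and are given by counts beside the share called among all genes in the same comparison, 10.8% higher and 11.1% lower with bicuculline in Control-shRNA cultures. In the p38 and JNK cascade, through which Gadd45 proteins act, 2 of 11 genes were called higher and 0 lower, and the median of the log2 fold changes was 0.04. They were Map2k3, which activates p38, with 1.41 (SE 0.16, edgeR adjusted p = 1.46e-06), and Map3k4, the kinase that Gadd45 proteins bind, with 0.57 (SE 0.13, edgeR adjusted p = 0.00167). Map3k4 went from 33.3 ± 3.76 to 49.4 ± 6.55 CPM (SD, n = 4). The p38 genes Mapk14 and Mapk11, at −0.22 and −0.29, and the JNK genes Mapk8, Mapk9 and Mapk10, at 0.08, 0.15 and 0.24, were not called. In knockdown cultures the same 2 genes of 11 were called higher, Map2k3 with 1.36 and Map3k4 with 0.76.

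Among the proteins that Gadd45 members bind in the cell cycle, 3 of 5 genes were tested and 2 called higher with bicuculline in both kinds of culture. Cdkn1a, the inhibitor p21, went from 114 ± 17.4 to 268 ± 28.9 CPM in Control-shRNA cultures (SD, n = 4), with a log2 fold change of 1.24 (SE 0.19, edgeR adjusted p = 5.19e-05). Pcna, the sliding clamp of replication and repair, had 0.76 (SE 0.07, edgeR adjusted p = 6.62e-08). Gadd45gip1, which encodes a binding partner of Gadd45g, had −0.31 (edgeR adjusted p = 0.00681) and was not called, and Cdk1 and Ccnb1 did not pass the filter on low counts. Proliferation markers were low, with summed levels of 8.84 to 10.6 TPM in Control-shRNA baseline and 5.29 to 6.83 TPM with bicuculline, and 1 of the 6 tested was called, as lower.

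In the list for demethylation and base repair, 3 of 21 tested genes were called higher with bicuculline in Control-shRNA cultures and 4 lower. The median of the log2 fold changes was 0.12, beside 0.0057 over all genes. Tet3 and Tet2, which oxidise methylated cytosine, had 1.91 (SE 0.13, edgeR adjusted p = 2.62e-09) and 1.06 (SE 0.14), and the cytidine deaminase gene Apobec3 had 0.84 (SE 0.21). Their sister gene Tet1 moved the other way, with −0.99 (SE 0.16, edgeR adjusted p = 8.40e-05). Lower too were the abasic site endonuclease gene Apex1 (−0.81), the excision nuclease gene Ercc4 (−0.69) and the uracil glycosylase gene Smug1 (−0.60), all called. Tdg, the glycosylase that removes oxidised cytosine, had −0.13 (SE 0.06) and was not called. The same 7 genes were called in knockdown cultures, in the same directions, with Tet3 at 1.92 and Tet1 at −1.19.

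After Dnmt3a1 knockdown, 1 of these 21 genes (4.76%, beside 5.83% of all genes in baseline and 5.89% with bicuculline) was called in each condition, a share near that of all genes. It was Ing1, a reader of methylated histone H3 that has been described to bring Gadd45a to its targets. Ing1 had a log2 fold change of 0.57 (SE 0.15, edgeR adjusted p = 0.0127) in baseline and 0.65 (SE 0.15, edgeR adjusted p = 0.00629) with bicuculline. With scaling by library size only, 0 of 21 were called in baseline.

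Genes of other stress pathways were counted in the same way. In the integrated stress response, driven by Atf4, 9 of 12 genes were called higher in Control-shRNA cultures and 0 lower (median of the log2 fold changes 1.08), and 8 of 12 in knockdown cultures. Among them were Ppp1r15a (2.47, SE 0.14) and Ddit3 (0.71, SE 0.19), which carry the historical names Gadd34 and Gadd153, and Atf3 (5.45, SE 0.34), from 3.28 ± 1.51 to 145 ± 37.1 CPM (SD, n = 4). Of 16 p53 targets, 5 were called higher and 2 lower (43.8%, beside 21.9% of all genes), and the median was 0.17. Mean levels went from 15.9 to 59.0 CPM for Btg2, from 93.4 to 303 for Sesn2 and from 24.3 to 57.6 for Plk3. Cdkn1a went from 114 to 268 CPM, and Mdm2 (0.58) and Sesn1 (−0.90) were called too. The p53 targets Bax (0.02), Ccng1 (−0.00) and Phlda3 (0.05) were not called, while Bbc3, a proapoptotic gene, had −1.24 (SE 0.35, edgeR adjusted p = 0.00769). Gadd45a, at 1.68, thus lay above the median of the p53 targets but below their highest value, 1.89, and among the higher values of the stress response list.

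Of 11 transcription factors known to act on Gadd45 genes in other cells, 4 were called higher and 2 lower with bicuculline in Control-shRNA cultures. Egr1 (4.61), Nfkb1 (1.55), Atf4 (1.10) and Myc (1.10) rose, and Foxo1 (−1.0) and Creb1 (−0.87) fell, each value a log2 fold change. Trp53, which encodes p53, had −0.37 (edgeR adjusted p = 0.0237) there and −0.63, a call, in knockdown cultures. Of 6 NF-kB targets 1 was called in Control-shRNA cultures, Nfkbia (0.70, SE 0.10). In knockdown cultures edgeR called 3, Nfkb2 (0.77), Nfkbia (0.66) and Tnfaip3 (0.57), and the interaction gave 0 of 6 by edgeR, voom with limma or DESeq2, with 0 at an unadjusted p under 0.05.

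All 16 immediate early genes were called higher in both kinds of culture, with median log2 fold changes of 3.86 and 4.08. Of all genes, 10.8% were called higher in Control-shRNA and 12.6% in knockdown cultures. The list was made of genes known to rise with activity, so its count follows from that choice. Gadd45b, at 4.63 in both, and Gadd45g, at 4.17 and 3.87, lay within their range, and Gadd45a, at 1.68, lay at its lower end, beside Nr4a3 at 1.65. Bdnf, a growth factor gene linked with Gadd45b in the hippocampus, went from 78.2 ± 19.7 to 453 ± 92.4 CPM in Control-shRNA cultures (SD, n = 4), with a log2 fold change of 2.53 (SE 0.19, edgeR adjusted p = 8.33e-09), whereas Fgf1 had 0.10 (SE 0.11). After knockdown Bdnf was lower in baseline, at 46.8 ± 8.59 CPM (SD, n = 4), with a log2 fold change of −0.74 (SE 0.18, edgeR adjusted p = 0.00900), and had −0.36 (edgeR adjusted p = 0.170) with bicuculline, where Gadd45b had 0.13 in both conditions.

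**Figure D5:**
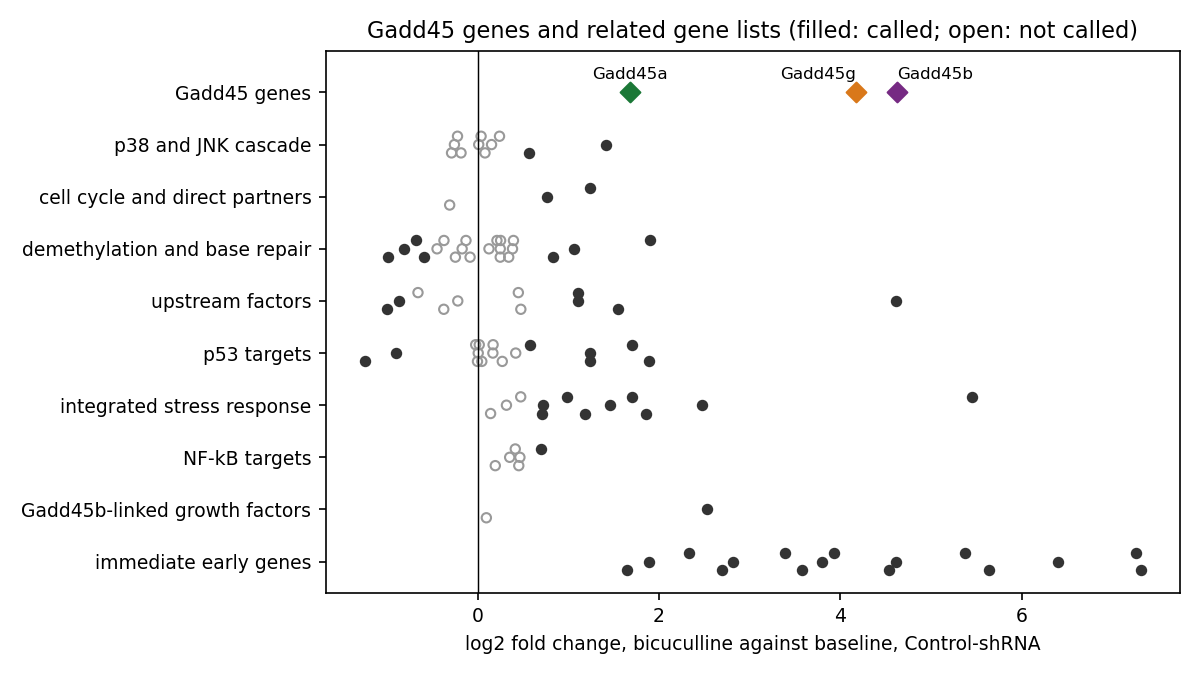
Log2 fold change with bicuculline in Control-shRNA cultures of the 3 Gadd45 genes (coloured diamonds) and of each tested gene in 9 lists, filled where called and open where not. Gadd45b and Gadd45g lie among the immediate early genes, far to the right of most genes of the kinase, repair and p53 lists, and Gadd45a lies among the higher genes of the p53 and integrated stress response lists.

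After knockdown, the calls in the other lists are to be read against 5.83% of all genes in baseline and 5.89% with bicuculline. Of the 16 immediate early genes, 1 was called higher (Fos, 0.58, SE 0.19, edgeR adjusted p = 0.0437) and 1 lower (Nr4a3, −0.63, SE 0.17, edgeR adjusted p = 0.0170) in baseline, and 1 lower with bicuculline (Fosb, −0.61). Voom with limma called 1 of the 16 in baseline and DESeq2 2. The Fos libraries overlapped in baseline, at 7.54 to 14.5 CPM in Control-shRNA and 11.6 to 19.2 CPM in Dnmt3a1-shRNA. The study, which tested with voom and limma, reports Fos as not altered by the knockdown, whereas the call here came from edgeR. In baseline, edgeR called 0 of 11 genes of the p38 and JNK cascade, 0 of 3 cell cycle partners, 0 of 11 upstream factors, 0 of 16 p53 targets and 0 of 12 stress response genes, with 3, 1, 3, 3 and 2 of them at an unadjusted p under 0.05. Voom with limma also called 0 in each, and DESeq2 called 1 of the upstream factors and 0 of the others. With bicuculline edgeR, voom with limma and DESeq2 called 0 in each of these lists, with 4, 2, 2, 4 and 1 genes at an unadjusted p under 0.05. Though not called, the 16 p53 targets had log2 fold changes from 0.06 to 0.33 in baseline. Their median was 0.16, beside 0.0070 over all genes, and with bicuculline 0.24 (range −0.04 to 0.46), beside −0.0057. The stress response genes had medians of −0.26 in baseline and −0.02 with bicuculline. Of the NF-kB targets, Relb was called lower in both conditions (−0.70, SE 0.16, edgeR adjusted p = 0.00504 in baseline).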

How the data were processed

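RNA of 16 libraries was quantified by the authors with kallisto after trimming with Trim Galore 0.6.4, on transcripts of GRCm38.p6; the submitters' notes give the kallisto version as 0.4.6. The deposited tables hold, per gene and library, an estimated count (the authors summed transcripts, without scaling) and a TPM value, which the authors scaled for transcript length and library total. Of 55385 versioned Ensembl identifiers, 55144 matched GENCODE release M21 without the version and 54487 with it. Groups and replicate numbers were taken from the sample titles.

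Here estimated counts were rounded and analysed in R 4.3.3 with edgeR 4.0.16: TMM scaling, filterByExpr, and 1 quasi-likelihood fit of the 4 groups. Intervals are 95% and p-values were adjusted by Benjamini-Hochberg over the 17222 genes tested. The interaction was called at an adjusted p under 0.05 alone. Permutation tests used log2 CPM with a prior count of 2. Alternatives used limma 3.58.1 (voom, and log2(TPM + 1) or log2(TPM + 0.1)), DESeq2 1.42.0 and its size factors, library sizes only, other filters and fold thresholds, only the groups compared, a replicate block, and each library left out. The fit was tested on simulated data.

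After subtraction of the group means, libraries of the same number correlated across genes with r from 0.142 to 0.221 (bicuculline, Control-shRNA) and from 0.204 to 0.355 (knockdown, baseline), above 0.1 in 4 of 4 pairs, so these numbers were taken to pair the libraries. For the other comparisons 3 of 4 pairs passed.

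The genes named are the members, Dnmt3a, the lists, the nearest protein-coding neighbours (E230016M11Rik was added after its overlap was seen) and, for each member, the 4 genes of at least 10 CPM with the highest correlation. Members and lists were chosen with earlier results of these data known. No list was tested as a set.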

Additional observations from a re-analysis of the deposited data

How the results depend on the processing

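Both bicuculline comparisons called all 3 members under each alternative. In Control-shRNA cultures, leaving out 1 library gave log2 fold changes of 1.55 to 1.74 for Gadd45a, 4.46 to 4.75 for Gadd45b and 3.96 to 4.30 for Gadd45g. After knockdown in baseline, Gadd45a (−0.54) became a call with DESeq2 (−0.54, adjusted p = 0.0470), with the replicate block (−0.55, adjusted p = 0.0146), summed with E230016M11Rik (−0.62, chosen after the data were seen) and without Dnmt3a1-shRNA baseline replicate 3 (range without 1 library −0.67 to −0.40). Gadd45g became a call there without Control-shRNA baseline replicate 3 (range 0.33 to 0.54). With bicuculline, the Gadd45a difference between shRNAs ranged from −0.25 to 0.0033 without 1 library, and the Gadd45b interaction from −0.12 to 0.16. The cause was not tested. The replicate block changed no other call of a member.

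Over all genes, the fold threshold moved the counts most. The 4 comparisons called 3765, 4436, 1004 and 1015 genes (bicuculline in Control-shRNA, bicuculline in Dnmt3a1-shRNA, knockdown in baseline, knockdown with bicuculline). Without a fold threshold they called 7131, 7919, 2809 and 3046, and with a threshold of 1 they called 1378, 1681, 175 and 185. The interaction called 0 genes, against 2 by voom with library sizes only, 18 by DESeq2, 3 without a filter, 3 with the replicate block and 0 to 1 without 1 library. With library sizes only, the median over all genes of the log2 fold change moved to −0.15 and −0.16 for bicuculline and to −0.07 and −0.08 for knockdown. Depth limits Gadd45a, whose counting error alone was 14.7% of its level in the lowest group.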
